A study of Mus musculus with 30 samples.

Results

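The 10 genes described here, of 27670 gene names on the array, have very large liver expression differences between 2 inbred mouse strains. They were taken from the array files by name, with Tceanc2 found under older names. Those high in D2 were Ntrk2, Rassf4, Ctse, Corin, Gpr12 and Tnfrsf14, and those high in B6 were Cdkn1a, Mme, Nnmt and Tceanc2. Together the 10 genes have 22 of the 41174 probes. They were chosen by the difference between the strains in these same arrays, so that difference is given below as a description with no test.

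Liver RNA of 30 mice was measured on 30 single-colour arrays, 1 mouse per array. D2 (DBA/2) and B6 (C57BL/6) are inbred strains, and each was fed an iron-deficient diet (less than 3 mg of iron per kg), an iron-balanced diet (200 mg per kg) or an iron-enriched diet (8.3 g per kg). There were 5 mice in each of the 6 groups: D2 deficient, D2 balanced, D2 enriched, B6 deficient, B6 balanced and B6 enriched. The labels state neither age nor sex.

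The 10 genes belong to several pathways, and Corin and Mme both act in the natriuretic peptide system. Ntrk2 encodes TrkB, the cell-surface receptor for brain-derived neurotrophic factor, made as a full-length receptor with a kinase domain and as truncated forms without one. Tnfrsf14 (HVEM) is a receptor of the TNF receptor family that binds the ligand LIGHT and the inhibitory receptor BTLA, and Gpr12 is an orphan G-protein-coupled receptor, known from brain, that raises cyclic AMP. Corin is a membrane serine protease known from heart, where it activates the precursor of atrial natriuretic peptide, and Mme (neprilysin) is a membrane peptidase that degrades natriuretic peptides among others. Ctse (cathepsin E) is an intracellular aspartic protease of stomach and immune cells. Rassf4 is a RAS-association domain protein, Cdkn1a is the cell cycle inhibitor p21 and a classical p53 target, Nnmt methylates nicotinamide and is abundant in liver, and Tceanc2 is a protein with domains of the transcription elongation factor S-II family.

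All 22 probes were well above background, by the scanner software's mark, on at least 3 arrays of either strain. A total of 32100 probes of 21678 genes met this rule. By the stricter rule of at least 3 arrays in each strain, 19 of the 22 remained, since 3 probes (1 of Mme, 2 of Tceanc2) were well above background on 0 of 15 D2 arrays. Signals are normalized intensities in arbitrary units, with a floor of 13.9, and differences are on the log2 scale. Levels of different probes are not comparable with each other.

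Promoter sequences are shown for the gene with the largest difference (Ntrk2), for the gene whose probes passed a diet test at both of its positions on the array (Tnfrsf14) and for the B6-high gene with the largest difference (Cdkn1a). They are the RefSeq sequences of build GRCm38.p6, which is the genome of the B6 strain, from 250 bases before to 50 after each annotated start. The D2 sequence was not analysed here. Capitals mark matches to any of the motifs searched for, each of them on both strands. The TATA box was searched as the letters TATAAA. The GC box, which Sp1 proteins bind, was searched as the letters GGGCGG. The CCAAT box was searched under that name, and the E-box, bound by many helix-loop-helix factors, as the letters CACGTG. The letters ACATGT, which the known p53 element of human CDKN1A contains, were added after the Cdkn1a sequence had been read. The Ntrk2 promoter lies at chr13:58806319-58806618 on the plus strand, the Tnfrsf14 promoter at chr4:154928028-154928327 on the minus strand, and the 2 Cdkn1a starts at chr17:29090729-29091028 and chr17:29093519-29093818 on the plus strand.
Ntrk2: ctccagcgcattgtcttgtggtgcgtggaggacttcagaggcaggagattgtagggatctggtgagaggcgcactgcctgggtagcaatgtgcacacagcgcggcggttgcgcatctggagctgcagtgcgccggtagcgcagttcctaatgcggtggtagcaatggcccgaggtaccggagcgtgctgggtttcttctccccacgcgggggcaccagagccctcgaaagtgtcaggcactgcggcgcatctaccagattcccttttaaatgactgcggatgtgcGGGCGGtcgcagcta
Tnfrsf14: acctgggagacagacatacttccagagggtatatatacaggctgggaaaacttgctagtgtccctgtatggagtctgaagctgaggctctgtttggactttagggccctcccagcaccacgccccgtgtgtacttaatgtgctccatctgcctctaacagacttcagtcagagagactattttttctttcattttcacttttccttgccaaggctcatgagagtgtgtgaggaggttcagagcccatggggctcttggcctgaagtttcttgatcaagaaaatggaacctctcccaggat
Cdkn1a, start 1: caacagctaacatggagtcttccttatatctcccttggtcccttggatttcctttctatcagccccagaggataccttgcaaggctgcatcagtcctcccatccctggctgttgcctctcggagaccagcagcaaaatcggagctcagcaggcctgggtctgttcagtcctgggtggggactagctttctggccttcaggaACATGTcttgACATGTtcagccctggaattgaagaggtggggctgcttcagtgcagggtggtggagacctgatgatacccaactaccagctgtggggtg
Cdkn1a, start 2: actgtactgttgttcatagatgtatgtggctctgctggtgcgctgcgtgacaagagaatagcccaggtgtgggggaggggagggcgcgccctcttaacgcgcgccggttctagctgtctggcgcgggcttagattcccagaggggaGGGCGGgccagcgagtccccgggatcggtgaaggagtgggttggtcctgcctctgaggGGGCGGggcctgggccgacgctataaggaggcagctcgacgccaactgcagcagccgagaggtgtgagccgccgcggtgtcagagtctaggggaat

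The Ntrk2 window held 1 GGGCGG, the second Cdkn1a window 2, and the Tnfrsf14 window none of the letters searched. The first Cdkn1a window held ACATGT 2 times, beginning at bases 202 and 212 of the 300. Of 32851 promoter windows of the same length, 35.7% held GGGCGG, 37.4% CCAAT, 13.6% TATAAA, 7.15% CACGTG and 5.28% ACATGT. No matches overlapped in the 4 windows shown. RefSeq windows were matched by symbol for 8 of the 10 genes.

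Over all genes the median absolute difference between the strains was 0.205, and 36 genes reached 4 in size. Ranked by size among 21678 genes, and taking the brightest probe of each gene, the D2 minus B6 difference was 6.80 for Ntrk2 (rank 4), 5.66 for Rassf4 (rank 11), 5.50 for Ctse (rank 12), 5.19 for Corin (rank 14), 4.37 for Gpr12 (rank 26) and 4.27 for Tnfrsf14 (rank 29). It was -4.62 for Cdkn1a (rank 19), -4.55 for Mme (rank 21), -4.52 for Nnmt (rank 23) and -4.39 for Tceanc2 (rank 24). The 29 genes at least as far apart as Tnfrsf14 thus include all 10. These sizes depend on the background correction: with normexp the difference was 2.29 for Tnfrsf14, 2.77 for Gpr12, 3.60 for Corin, 5.25 for Ntrk2 and -2.93 for Mme, in the same direction as above. With the floor doubled it was 3.49 for Tnfrsf14. The largest differences outside the list were 7.93 for Ifi202b, an interferon-inducible gene, and -7.75 for Thumpd1. The next ones in each direction were probes listed only by an identifier, with 6.01 and 5.42 on the D2 side and -7.08 and -6.68 on the B6 side.

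**Figure D1:**
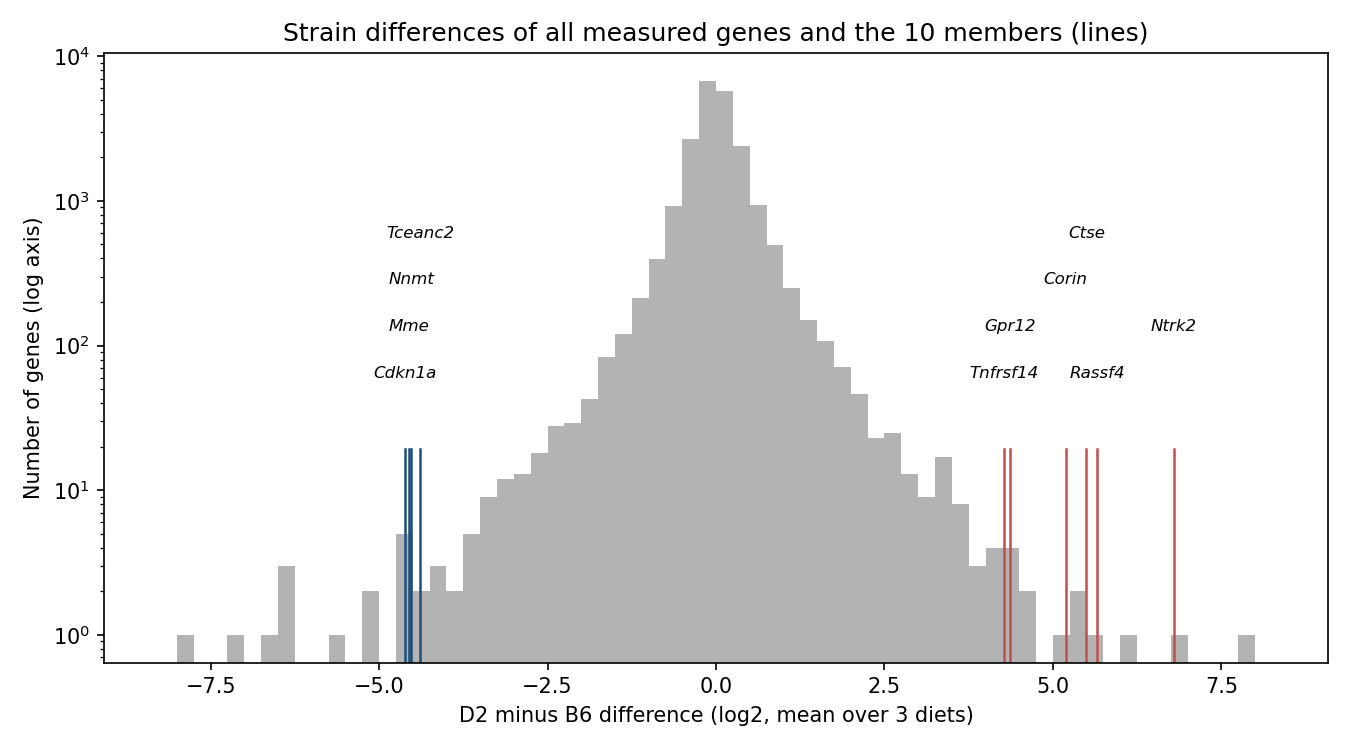
Histogram of the D2 minus B6 difference (log2, mean over the 3 diets) of 21678 genes, with a log axis for the number of genes and coloured lines at the 10 genes described (red, higher in D2, blue, higher in B6). The lines lie between 4.27 and 6.80 on the D2 side and between -4.62 and -4.39 on the B6 side, while the median absolute difference of all genes was 0.205.

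**Figure D2:**
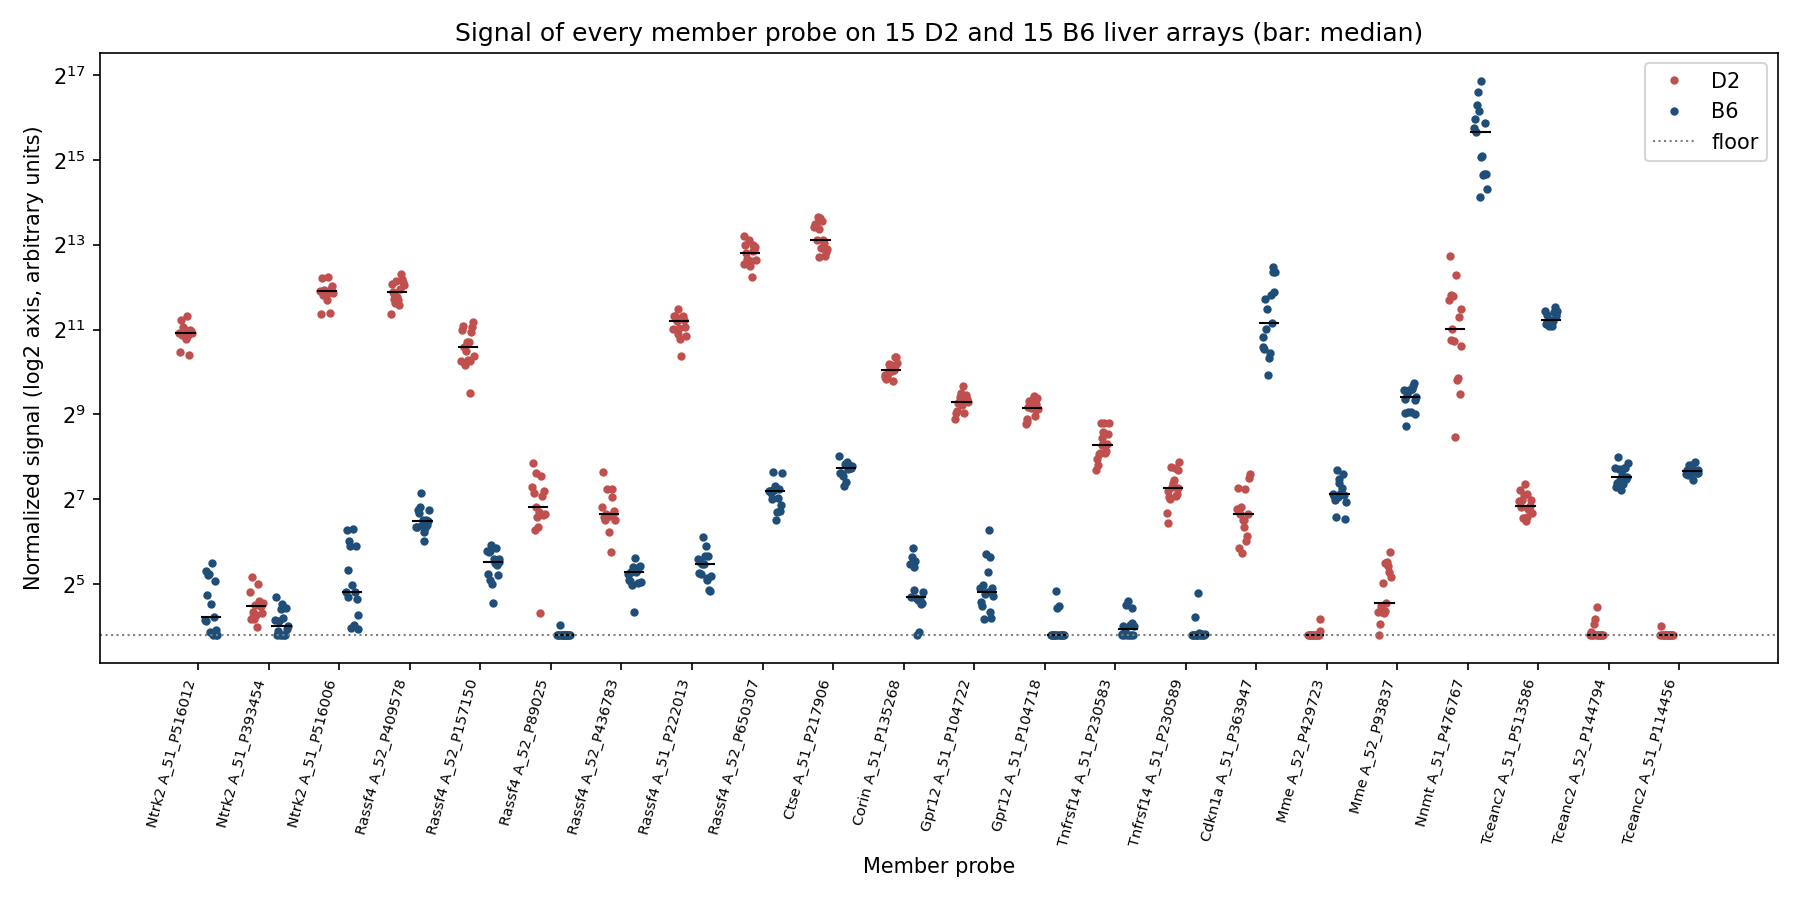
Normalized signal (log2 axis, arbitrary units) of each of the 22 probes on 15 D2 (red) and 15 B6 (blue) arrays, 1 point per mouse, with the median as a bar and the floor of 13.9 as a dotted line. The strains overlap at 1 probe, Ntrk2 A_51_P393454, and are apart at the other 21. The genes were chosen by this difference, and the share of all probes apart in this way was not counted.

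Among the receptors, Ntrk2 was seen by 3 probes that did not behave alike. Probe A_51_P516006 had a lowest, median and highest signal of 2643, 3816 and 4813 on the D2 arrays and 15.3, 28.1 and 78.7 on the B6 arrays, and probe A_51_P516012 had 1360.4, 1939.9 and 2547 on the D2 arrays and 13.9, 18.7 and 45.6 on the B6 arrays. No B6 mouse came near any D2 mouse at these probes. The fold was 111 at A_51_P516006 and 85.2 at A_51_P516012, whose sequence record is that of the truncated receptor. At A_51_P516012, 10 of 15 B6 arrays were well above background and 3 were at the floor, so its fold rests partly on the floor. Probe A_51_P393454, which carries the record of the full-length kinase receptor, had 16.0, 22.3 and 35.8 in D2 and 13.9, 16.2 and 26.05 in B6. It was well above background on 8 of 15 arrays of each strain, and the strains overlapped.

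Within each diet the Ntrk2 fold at A_51_P516006 was 85.4 on the deficient, 117 on the balanced and 138 on the enriched diet. The probe A_51_P516012 is spotted 10 times per array, and the coefficient of variation between these spots had a median of 4.44% on D2 arrays and of 22.5% on the dim B6 arrays. Over the 15 D2 arrays, the 2 D2-high probes followed each other from mouse to mouse (Pearson r = 0.976), as a description only.

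Tnfrsf14 also had a high and a dim strain at both of its probes. Probe A_51_P230583 ran from 207 through a median of 310.5 to 448 in D2 and from 13.9 through 15.5 to 24.4 in B6, a 19.3-fold difference, and 6 of the 15 B6 arrays were at the floor. Probe A_51_P230589 ran from 87.2 through 154.9 to 237 in D2 and from 13.9 through 13.9 to 27.8 in B6, with 10 B6 arrays at the floor and 3 well above background. Its fold of 10.3 is therefore set mostly against the floor. The lowest D2 mouse was 8.49 and 3.13 times the highest B6 mouse at these probes.

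Gpr12 had signals of 473, 627 and 817 (lowest, median, highest) on D2 arrays and 18.1, 28.2 and 77.4 on B6 arrays at A_51_P104722, a 20.7-fold difference. At A_51_P104718 it had 440.3, 572 and 690.3 in D2 and 13.9, 13.9 and 28.7 in B6, with 12 B6 arrays at the floor. On the deficient diet 0 of 5 B6 arrays were well above background at this probe, and D2 was at least 34.1-fold higher, set against the dimmest signals that the software could separate from background. The fold at A_51_P104722 was 22.4 on the deficient, 17.0 on the balanced and 23.1 on the enriched diet.

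Among the proteases and peptidases, Ctse was bright in D2 and above background in every B6 mouse. It had 6731, 8821 and 12941 on D2 arrays and 159.8, 213 and 261 on B6 arrays, and the fold was 45.1. The lowest D2 mouse had 25.8 times the signal of the highest B6 mouse. Corin had 887, 1064 and 1304 in D2 and 13.9, 26.1 and 58.0 in B6, a 36.5-fold difference. Of the 15 B6 arrays, 14 were well above background and 1 was at the floor. By diet the Corin fold was 22.3 on the deficient, 40.9 on the balanced and 53.3 on the enriched diet.

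Mme lay the other way. Probe A_52_P93837 had 13.9, 23.7 and 54.4 on D2 arrays and 427, 680.5 and 856 on B6 arrays, 23.4-fold higher in B6. It was well above background on 11 of 15 D2 arrays, and 1 was at the floor. Probe A_52_P429723 was well above background on 0 of 15 D2 arrays and on 15 of 15 B6 arrays, where it ran from 92.3 through 138.8 to 205. In B6 it was at least 7.93-fold higher on the deficient, 8.12-fold on the balanced and 7.87-fold on the enriched diet.

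Among the intracellular proteins, Rassf4 had 6 probes, all apart between the strains. The 4 probes that carry its RefSeq record had differences from 5.11 to 5.69, and the brightest of them, A_52_P650307, had 4810.0, 7171 and 9412 in D2 and 90.7, 146 and 201 in B6. The 2 probes that carry another transcript record had 2.99 (A_52_P89025) and 1.53 (A_52_P436783). At A_52_P89025, 14 of 15 B6 arrays were at the floor and 3 were marked well above background, so the size of that difference rests on the floor. At A_52_P436783 the lowest D2 mouse (54.0) was 1.10 times the highest B6 mouse (49.0).

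Cdkn1a had 53.3, 100.1 and 194 on D2 arrays and 968.5, 2283 and 5721 on B6 arrays, 24.6-fold higher in B6. The fold was 19.3 on the deficient, 20.1 on the balanced and 38.4 on the enriched diet. Its single probe is spotted 10 times per array, with a median coefficient of variation between spots of 5.69% on D2 arrays and 2.39% on B6 arrays.

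Nnmt was the brightest of these probes in B6 and the most variable from mouse to mouse. It had 356.5, 2075 and 6773 on D2 arrays and 17789, 51140 and 119047 on B6 arrays, 22.9-fold higher in B6, and on 14 of the 15 B6 arrays the value came from a second, low-gain scan that the software scales up. The SD between mice of a strain was 1.14 on the log2 scale in D2 and 0.857 in B6. The highest D2 mouse stayed below the lowest B6 mouse, which had 2.63 times its signal.

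Tceanc2 varied least of the 10 brightest probes among mice of the high strain. Probe A_51_P513586 had 90.2, 115 and 164 in D2 and 2158, 2384 and 2937 in B6, 20.9-fold higher in B6, with an SD of 0.251 in D2 and 0.140 in B6. The probes A_52_P144794 and A_51_P114456 were well above background on 0 of 15 D2 arrays and on 15 of 15 B6 arrays. They were at least 9.19 to 11.8-fold and at least 10.8 to 12.05-fold higher in B6 over the 3 diets. Probe A_51_P114456 was linked to Tceanc2 through an older name alone and carries another RefSeq record than A_51_P513586. Over the 15 B6 arrays its Pearson r was 0.121 with A_51_P513586 and 0.200 with A_52_P144794.

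Diet was tested within each strain by limma's moderated test over all 32100 probes with Benjamini-Hochberg adjustment, a test that the choice of genes did not use. In D2, Tnfrsf14 was lower at both probes on the deficient than on the balanced diet. Probe A_51_P230583 had 207, 248, 225.5, 268 and 272.5 in the D2 deficient mice, against 448, 310.5, 348, 383 and 443 in the D2 balanced mice. All 5 deficient mice lay below all 5 balanced mice. The difference was -0.66 (SE 0.159, adjusted p = 0.0187). Probe A_51_P230589 had 103, 146, 87.2, 132 and 128 in D2 deficient mice, against 217, 157, 168, 176 and 213.5 in D2 balanced mice, again without overlap, and fell by 0.66 (SE 0.178, adjusted p = 0.0359).

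These 2 were the only member probes of 22 called in that comparison, against 3.89% of all probes. The call was lost under scaling to the 75th percentile (adjusted p = 0.0656 and 0.115), without normalization (0.144 and 0.200), and when D2 deficient mouse 1 (0.0589 and 0.0917) or D2 balanced mouse 5 (0.0614 and 0.102) was left out. The call at A_51_P230589 was also lost without D2 deficient mouse 3 (0.116) or D2 balanced mouse 1 (0.0845) or 4 (0.0549), and with only these 2 groups fitted (0.072). Both probes were called with slide as a block (adjusted p = 0.00819 and 0.0277) and with scan day as a block (0.00644 and 0.00699). Within scan day 2 the differences were -0.43 and -0.46 (adjusted p = 0.522 and 0.570), and within scan day 3 -1.04 and -1.17, where D2 balanced held 1 array, so these day 3 values have no spread of that group behind them. In the B6 deficient mice the same probes, near background, differed from B6 balanced by -0.27 and -0.12 (adjusted p = 0.546 and 0.873), and the difference of the deficiency effect between the strains was -0.39 and -0.53 (adjusted p = 0.814 and 0.739).

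In B6, 1 of 22 probes was called for the enriched against the balanced diet, beside 5.01% of all probes. It was Gpr12 A_51_P104718, at -0.48 (SE 0.141, adjusted p = 0.0476), where the enriched mice were all at the floor of 13.9, against 13.9, 28.7, 21.8, 13.9 and 22.5 in the balanced mice. The value therefore compares signals at and near background, and 11 of the 14 alternatives that tested this probe did not call it. The other Gpr12 probe, A_51_P104722, had -0.61 (SE 0.238, adjusted p = 0.161).

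Cdkn1a in B6 had the largest diet difference of the 10 genes in size but did not pass. It had 2283, 5209, 5721, 3811 and 5226 in the B6 enriched mice, against 2867, 968.5, 1284, 1394 and 3607 in the B6 balanced mice. The 2 groups overlapped in 1 enriched mouse. The difference was 1.25 (SE 0.376, adjusted p = 0.0517), and 6 of 15 alternatives called it. In D2 it was 0.31 (SE 0.376, adjusted p = 1), and the difference between the strains was -0.94 (SE 0.531, adjusted p = 0.554).

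None of the 22 probes was called for the enriched diet in D2 (0.0903% of all probes) or for the deficient diet in B6 (1.4%). None was called for the strain difference of the enrichment effect (0.819%) or for that of the deficiency effect (0.0218%). Mme A_52_P429723 and Tceanc2 A_52_P144794 and A_51_P114456 were well above background on 0 of 15 D2 arrays. Their D2 and interaction values therefore compare signals at and near the floor. Mme A_52_P93837 had 45.7, 42.9, 38.8, 54.4 and 36.3 in D2 enriched mice, against 32.5, 20.0, 45.5, 20.6 and 23.7 in D2 balanced mice, where 1 balanced mouse lay among the enriched ones. Its difference was 0.68 (SE 0.205, adjusted p = 0.498). In B6 deficient against B6 balanced mice Corin differed by 0.72 (SE 0.216, adjusted p = 0.108), and Gpr12 by -0.48 at A_51_P104718 (SE 0.141, adjusted p = 0.0983) and by -0.74 at A_51_P104722 (SE 0.238, adjusted p = 0.138). The bright Nnmt probe differed by 0.59 (SE 0.573, adjusted p = 0.773) there and by 0.98 (SE 0.573, adjusted p = 0.424) in D2 deficient against D2 balanced mice.

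**Figure D3:**
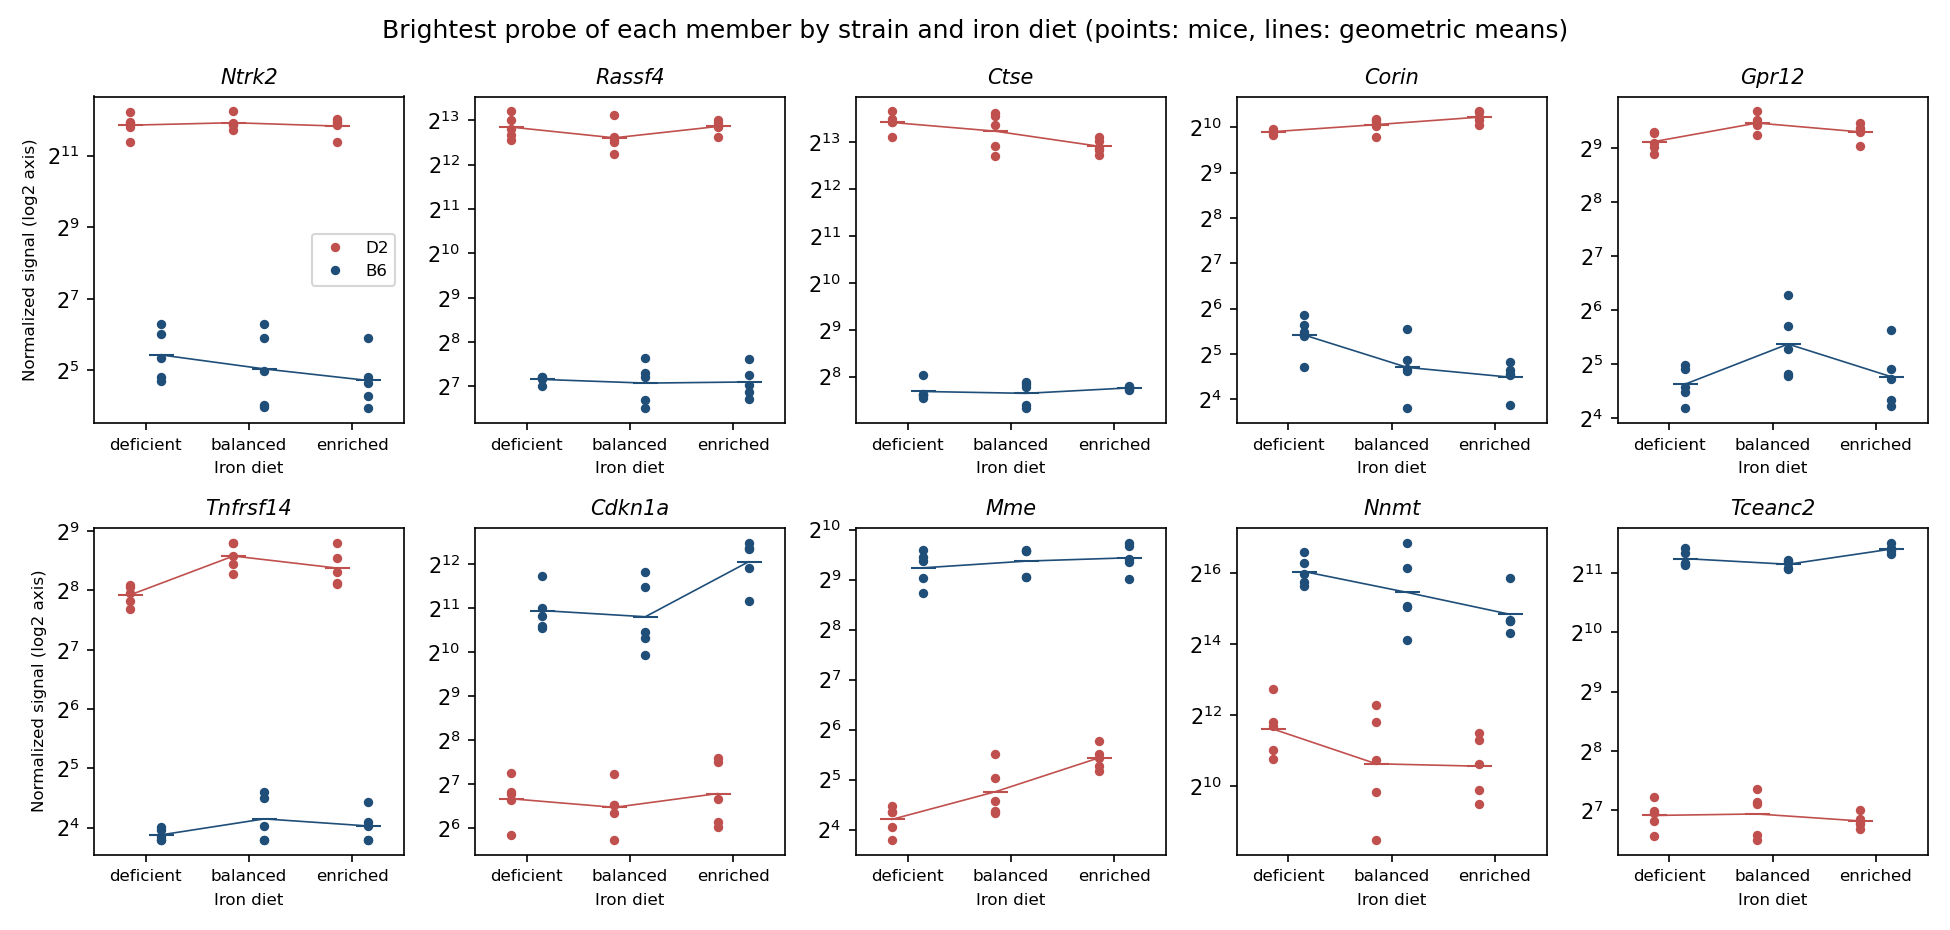
Normalized signal (log2 axis) of the brightest probe of each of the 10 genes on the deficient, balanced and enriched diets, with 1 point per mouse (5 per group), D2 in red and B6 in blue, and lines through the geometric means. Each gene keeps its strain order on all diets, the D2 deficient mice lie below the D2 balanced mice for Tnfrsf14, and the Nnmt points spread most.

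Genes around each member were read as context, taking the 5 nearest measured genes on each side. Of these 100 genes, 55 were called in the strain comparison, beside 48.2% of all genes, and 7 were called with a difference over 1 in size, beside 6.16% of all genes. The median absolute difference of the neighbours was 0.251, beside 0.205 for all genes. Of the 7, 3 were near Tnfrsf14 on chromosome 4. Prxl2b, next to it, was higher in D2 by 1.98, and Plch2, a phospholipase C, by 1.66. Prdm16, a regulator of brown fat identity, was well above background on 0 of 15 D2 arrays and was at least 3.92-fold higher in B6. Next to Ctse on chromosome 1, Rab7b, a small GTPase of vesicle traffic, lay the other way from Ctse, at -2.93, and Pm20d1 was higher in D2 by 1.23. Nipal1 near Corin had -1.17, and Ppil1 near Cdkn1a -1.06, the same direction as Cdkn1a. Around Ntrk2, Rassf4, Gpr12, Mme, Nnmt and Tceanc2, no neighbour passed with a difference over 1.

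**Figure D4:**
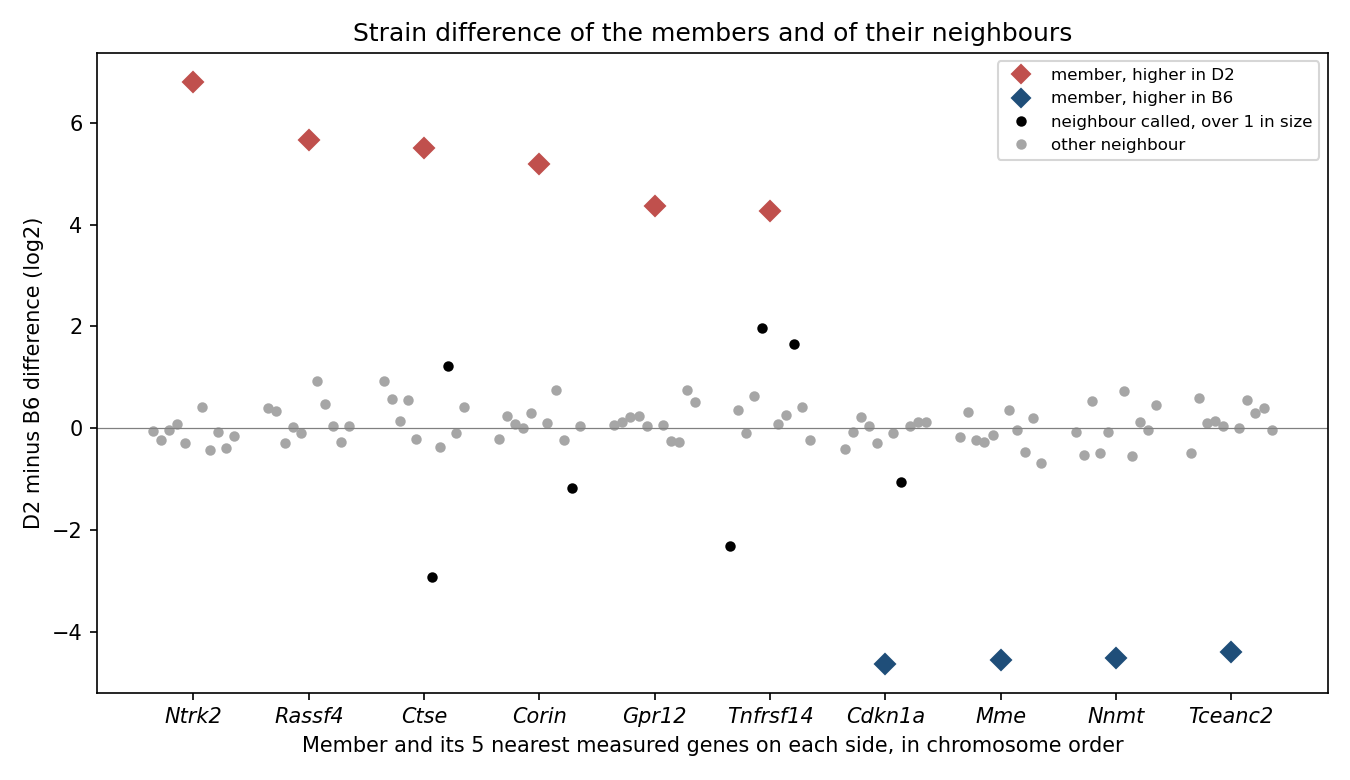
D2 minus B6 difference (log2) of the 10 genes (diamonds) and of the 5 nearest measured genes on each side in chromosome order (circles, black where called with a difference over 1 in size). Most neighbours lie near 0, and the 7 black points are near Ctse, Corin, Tnfrsf14 and Cdkn1a.

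Pathway partners were counted from 10 lists with 129 measured genes, 1 probe per gene. In the strain comparison 73 (56.6%) were called, 33 higher and 40 lower in D2, beside 48.2% of all genes, and the median difference was -0.06 beside -0.01. Of the partners, 10 were called for the enriched diet in B6 (5.38% of all genes), 0 for the enriched diet in D2 (0.0969%), 3 for the deficient diet in B6 (1.59%) and 7 for the deficient diet in D2 (4.17%). The median differences of the partners in these were 0.06, 0.02, 0.03 and 0.01, and those of all genes 0.0235, -0.00415, 0.00194 and -0.00207. With slide as a block, 0 partners were called for the deficient diet in B6. With only the groups of each comparison fitted, the counts were 4 for the enriched diet in B6, 0 for the deficient diet in B6 and 1 for the deficient diet in D2.

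Of the neurotrophin list (12 measured), 5 were higher and 5 lower in D2. Ntf3 (-1.39), neurotrophin 3, and Ntf5 (-1.29), a ligand of TrkB, were lower in D2. Ntf3 was higher by 1.42 (adjusted p = 0.0341) in deficient B6 mice, a call lost with slide as a block, and Plcg1, a signalling partner of the receptors, was lower (-0.58, adjusted p = 5.79e-05) in enriched B6 mice. In the TNFRSF14 list (7 measured) no diet comparison called any, with 3 higher and 1 lower in D2. Of the 10 measured in the Gpr12 list, 3 were higher and 2 lower in D2, and Prkaca, the catalytic subunit of protein kinase A, was lower (-0.26, adjusted p = 0.0326) in deficient B6 mice, a call also lost with slide as a block.

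Of the 9 natriuretic peptide genes, 2 were higher and 0 lower in D2. Npr1, the receptor that makes cyclic GMP, was higher in D2 by 1.34, and Pcsk6, the protease known to activate corin, was higher by 0.40 (adjusted p = 0.0131) in enriched B6 mice. In the list of 9 other peptidases measured with Mme, 3 were higher and 1 lower in D2 and no diet comparison called any. Among the 11 aspartic and lysosomal proteases, 4 were higher and 4 lower in D2. Renin (Ren1) was higher in D2 by 1.61 and by 0.75 (adjusted p = 0.0303) in deficient D2 mice, cathepsin B (Ctsb) was lower there (-0.24, adjusted p = 0.0475), and cathepsin D (Ctsd) was higher by 0.25 (adjusted p = 0.0139) in enriched B6 mice.

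Of the 14 RASSF and Hippo kinase genes, 4 were higher and 4 lower in D2, and Rassf3 was lower (-0.74, adjusted p = 0.000819) in enriched B6 mice. Of 26 p53 and G1 genes, 7 were higher and 8 lower in D2, beside Cdkn1a. Gadd45a (1.57) and Ccne2 (1.01) were higher in D2 and Gadd45b (-1.44) and Trp53inp1 (-1.06) lower. In enriched B6 mice Ccnd1, the cyclin of G1 entry, was higher by 1.37 (adjusted p = 0.0108), Trp53inp1 by 0.82 (adjusted p = 0.0417) and Cdkn1b by 0.22 (adjusted p = 0.0424). In deficient D2 mice Gadd45a (-1.23, adjusted p = 0.0356) and Phlda3 (-0.66, adjusted p = 0.0130) were lower.

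Of 21 nicotinamide and methyl-group genes listed with Nnmt, 2 were higher and 9 lower in D2. Aox3, an aldehyde oxidase, was lower in D2 (-2.03) and in enriched B6 mice (-1.11, adjusted p = 0.00692). Mat1a, which makes the methyl donor S-adenosylmethionine in liver, was higher by 0.45 (adjusted p = 0.00533) and Qprt lower (-0.26, adjusted p = 0.0356) in deficient D2 mice. Mat2b (0.32, adjusted p = 0.0235) and Pemt (0.30, adjusted p = 0.0377) were higher in enriched B6 mice. Of 10 elongation factor genes, 0 were higher and 6 lower in D2, with Eloa at -1.15, and Tcea3 was lower (-0.91, adjusted p = 0.00154) in deficient D2 mice.

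Markers of hepatocytes, the main cells of liver, were bright in every group (11 of 12 measured, with a median sum of 1855400 in D2 balanced and 2014100 in B6 balanced mice), with 3 higher and 5 lower in D2 and a median difference of -0.06. Those of Kupffer cells and macrophages were lower in D2 at 9 of 9 genes, with a median difference of -0.54, and their summed level was 31800 to 44625 in D2 deficient, 31511 to 37209.9 in D2 balanced and 38215 to 47663 in D2 enriched mice, against 57912 to 78618 in B6 deficient, 48731 to 105432 in B6 balanced and 56934 to 69272 in B6 enriched mice. Those of sinusoidal endothelium were lower in D2 at 9 of 10, with a median of -0.27. In bulk liver, fewer cells of a type and less RNA per cell cannot be told apart, and the part of these markers in the members' differences was not tested. Sums over probes, above and below, weigh the brightest probes most and can be read only between groups for the same list. Of 7 measured stomach and gut markers, 1 was higher and 0 lower in D2, with a median difference of -0.02, and the median sums were 7678 in D2 deficient and 5722 in B6 deficient mice, 6118 in D2 balanced and 5212 in B6 balanced mice, and 5572 in D2 enriched and 7054 in B6 enriched mice. The counts higher and lower in D2 were 3 and 3 of 11 for stellate cells, 1 and 3 of 7 for cholangiocytes, 1 and 2 of 11 for T, B and NK cells, 1 and 0 of 7 for neutrophils, 2 and 0 of 5 for erythroid cells, 1 and 1 of 6 for pancreatic acinar cells and 0 and 1 of 7 for fat and muscle.

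The genes most like each member over all 30 arrays, named by Pearson's r with its brightest probe, were mostly other genes apart between the strains, so these values share the strain split. The first were Snrnp25 (0.988) and Tpmt (0.986) for Ntrk2, Rbm45 (0.996) and Ifi202b (0.994) for Rassf4, Ifi202b (0.994) for Ctse, Rbm45 (0.990) and Nnt (0.988) for Corin, Tmc5 (0.983) and Serpina3a (0.982) for Gpr12, and Ocel1 (0.995) and Gltpd2 (0.995) for Tnfrsf14. They were Dctn3 (0.973) and Pym1 (0.971) for Cdkn1a, Pttg1 (0.986) and Zfp277 (0.985) for Mme, Slc25a51 (0.957) for Nnmt and Thumpd1 (0.996) for Tceanc2. Over the 15 arrays of the high strain the closest named genes were Wap (0.854) for Ntrk2, Rnase6 (0.900) for Corin, Ppil3 (0.927) for Gpr12, Tctn2 (0.956) for Tnfrsf14, Mfsd2a (0.871) for Cdkn1a, Gsto1 (0.834) for Mme, Ube4b (0.898) for Nnmt and Sgk1 (0.892) for Tceanc2. The genes not named are listed in the files by an identifier alone, 5 in all. Each within-strain value is the highest found among all measured non-member genes over only 15 arrays. How high the top value would be among unrelated genes was not computed, so these are no evidence of shared regulation.

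Between members, over the 15 arrays of the high strain, r ran from -0.623 (Ctse and Corin) to 0.718 (Gpr12 and Tnfrsf14) among the D2-high genes and from -0.545 (Mme and Nnmt) to 0.611 (Cdkn1a and Tceanc2) among the B6-high genes. These points share arrays, diets and scan days and are given as a description.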

How the data were processed

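The deposited values are spot intensity, background-subtracted and linear, written per the file headers by Agilent Feature Extraction 9.1.3.1 (the labels name another version). The series' text says that the authors used quantile normalization, a filter on dim genes and an analysis of variance with R/maanova. That package was not run here. After removal of control and outlier-marked spots, repeated spots of a probe were combined by their mean. The deposited intensity was then quantile normalized, raised to a floor of 13.9 and turned to log2 values. Probes entered the fit if well above background on at least 3 arrays of either strain.

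One limma fit (limma 3.58.1, R 4.3.3; Python 3.11.15) of 6 group means over all 30 arrays gave the diet and interaction contrasts, with Benjamini-Hochberg adjustment over 32100 probes at 0.05, and was tested on simulated data. A gene's brightest kept probe stood for it. Probes were named through a RefSeq table of build GRCm38.p6 (22951 by accession, 6659 by symbol, 3109 by synonym, 8455 kept as filed). The mice have separate codes in the labels, and replicate numbers only name them. The arrays fell on 10 slides and 3 scan days (5, 11 and 14 arrays). Groups were uneven over the days. Day 1 held 1 B6 balanced, 1 D2 balanced, 1 D2 deficient and 2 D2 enriched arrays. Day 2 held 1 B6 enriched and 3 D2 balanced arrays, and day 3 held 4 and 1. The main fit had no term for slide or scan day, which were alternatives. Between 63.1% and 78.8% of spots were well above background, and precision is limited by how many arrays there are.

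The 10 genes and the 21 gene lists were chosen with earlier results of these data known. Named genes are the members, the 3 largest other differences in each direction, the 2 genes most like each member and the 1 most like it within the high strain, neighbours called with a difference over 1, and up to 4 partners per list and comparison that passed a diet test or a strain difference over 1. Alternatives were other scalings, background corrections, filters and floors, slide or scan day as a block, single scan days, other fits and leaving out each mouse. No gene list was tested as a set. Values of 2 partner genes are not reported here.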

Additional observations from a re-analysis of the deposited data

Results flagged for a closer look

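Of 111 sets of 5 mice (member probe by group, at least 3 arrays well above background), 7 had 1 mouse standing apart by Dixon's criterion, where chance gives about 1 in 20. D2 enriched mouse 2 was low at both Ntrk2 probes that are high in D2, with 1360.4 against 1881.7 to 2026 in the other mice of its group at A_51_P516012, and 2668.3 against 3693.4 to 4157.3 at A_51_P516006. D2 deficient mouse 2 was high at Rassf4 A_52_P436783 (200.6, the others 91.3 to 112.4). B6 deficient mouse 4 was low at Rassf4 A_52_P650307 (129.8, the others 143 to 148.7). B6 deficient mouse 1 was high for Ctse (261.2, the others 186.6 to 196.6), B6 enriched mouse 3 for Nnmt (60145.3, the others 20307.7 to 26150.6) and B6 enriched mouse 1 for Tceanc2 A_51_P114456 (236.1, the others 196.1 to 205.3).

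At 4 probes the signal moved one way in all 5 D2 mice and the other way in all 5 B6 mice on a diet, relative to the balanced mean. The share of all probes that did so was not counted. The strain difference of the diet effect (D2 minus B6) did not pass limma's test at any of the 4 probes. It was 0.53 for the deficient diet at Rassf4 A_51_P222013 (adjusted p = 0.745) and -0.44 for the enriched diet at Ctse (adjusted p = 0.429). For Corin on the deficient diet it was -0.87 (adjusted p = 0.588). At Tceanc2 A_52_P144794 on the enriched diet it was -0.51 (adjusted p = 0.164). There 0 of 15 D2 arrays were well above background, and all 5 D2 enriched mice were at the floor of 13.9.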

How the results depend on the processing

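The direction of each strain difference of the 10 genes held under every scaling, floor, block, scan day and left-out mouse tried. These genes were chosen for large differences in the same arrays. A held direction was thus nearly fixed in advance and adds no support. The median difference moved with normexp background correction, to 4.34 for the D2-high genes (5.34 as reported) and to -3.82 for the B6-high genes (-4.54), and ran from 5.31 to 5.39 and from -4.58 to -4.48 with single mice left out. Of the single genes, all but Nnmt moved with normexp: Ntrk2 to 5.25, Rassf4 5.15, Ctse 5.09, Corin 3.60, Gpr12 2.77, Tnfrsf14 2.29, Cdkn1a -3.93, Mme -2.93 and Tceanc2 -3.72. Tnfrsf14 also moved with the floor doubled (3.49), within scan day 2 (4.01) and with the median of its probes (3.82). Within scan day 2, Ntrk2 (6.16) and Gpr12 (4.85) moved as well. With the median of a gene's probes, so did Rassf4 (5.24), Gpr12 (4.78), Mme (-3.93) and Tceanc2 (-3.86). Single scan days leave some groups with 1 array (D2 balanced on day 3, and D2 enriched, B6 balanced and B6 enriched on day 2), which the fit assumes to vary like the other groups, so counts from single days that rest on these groups are weak evidence either way. Member probes called for the deficient diet in D2 (2 as reported) were 0 under 75th percentile scaling, without normalization and within scan day 2, 1 with one probe per gene or with only the 2 groups fitted, and 3 with the floor doubled and 4 within scan day 3, and 0 to 2 with a mouse left out. For the enriched diet in B6 (1) they were 2 under the study's filter, 0 with no filter, the floor doubled, within scan days 2 and 3, only the 2 groups or unmoderated variances, and 0 to 2 with a mouse left out. The gene called for the enriched diet in B6 changed with the setting. Over 15 alternatives Gpr12 was called in 3, Cdkn1a in 6 and Ntrk2 in 1. The count stayed at 1 in 9 of the 30 fits that left out a mouse. With a mouse left out, the deficient diet in B6 (0) gave 0 to 1. Within scan day 3, the enriched diet in D2 gave 4, the enrichment difference 3 and the deficiency difference 4 (each 0 as reported, and 0 with any mouse left out), all against the single D2 balanced array of that day.

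Partner genes were recounted under the same alternatives, added after seeing the data. For the deficient diet in D2 (7) there were 13 with 75th percentile scaling, 4 without normalization, 11 with the floor doubled and also 11 with a scan day block, 0 for scan day 2 alone and 1 with only the 2 groups. For the enriched diet in B6 (10) there were 6 without normalization, 0 and 2 within scan days 2 and 3 and 4 with only the 2 groups. For the deficient diet in B6 (3) there were 1 with no filter and 0 with a slide block, in scan days 2 and 3 alone or with only the 2 groups. For the enriched diet in D2 (0) there were 5 within scan day 3, again against 1 D2 balanced array. With a mouse left out they ran from 3 to 8, 6 to 12, 0 to 4 and 0 to 0. The cause was not tested. Scan day 1 held too few arrays to fit. No paired analysis was possible because the labels give no replicate number shared between groups. Signals near the floor limit all values of the dim strain.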
